A study of Mus musculus with 8 samples.

Results

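Baseline expression in the postnatal mouse renal cortex was described from the 4 control libraries among 8 in all, chosen by title and mouse line. All 35275 genes of the deposited table were examined in them. The controls were Cre-negative mice at postnatal day 7, and the other 4 libraries, from Six2-Tfam knockout mice, were not analysed here. Whether the controls carry a floxed Tfam allele, whether they are littermates, and their sex and strain are not given in the labels. Each library comes from a bulk piece of cortex, the outer kidney with glomeruli and convoluted tubules, and is named here by its mouse (Con1391, Con1452, Con1822 and Con1823).

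Blood is filtered in the glomerulus across podocytes, and the proximal tubule then takes back most of the filtered salt, sugar, amino acids, phosphate and protein at a high cost in mitochondrial energy. The thick ascending limb, the distal convoluted tubule, the connecting tubule and the collecting duct adjust salt, calcium, acid and water after that. In the mouse, new nephrons are formed from Six2-expressing progenitors until the first days after birth, so the cortex at this age holds young nephrons that are still growing.

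The total counts were 16098284 in Con1391, 17976888 in Con1452, 15597762 in Con1822 and 16999339 in Con1823. Abundance is given below as the authors' FPKM, in which the counts of a gene are divided by its length and by its library's total, as mean ± SD over 4 libraries. Values in a series of 4 follow the order Con1391, Con1452, Con1822, Con1823. A gene counts as detected at 1 FPKM or more in every control. Sums of lists, counts of genes highest or lowest in a library, and spread use CPM, counts scaled to 1000000 per library with TMM factors. For single genes, libraries are also set side by side in FPKM where that unit is printed. The order of close libraries can differ between the units. Slc12a3, for example, was highest in Con1822 in FPKM (118) and in Con1452 in CPM (400). No library duplicated another, and the Spearman correlation across 11593 genes with a mean count of at least 100 lay between 0.987 and 0.993 for the 6 pairs of libraries. Genes more than 1 log2 unit apart numbered 7 between Con1822 and Con1823, the fewest of a pair, and 73 between Con1391 and Con1452, the most. Other measures order the pairs differently: the Spearman correlation was lowest between Con1452 and Con1822, and the median absolute difference was smallest between Con1391 and Con1823, at 0.09 log2. Con1391 held adipocyte transcripts and Con1452 had the highest mitochondrial mRNA, so results that rest on either are given with that value beside them. Xist, the RNA of the inactive X chromosome, reached 111, 139, 105 and 119 FPKM. The 4 Y-linked genes examined summed to 0, 2, 3 and 2 counts.

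The most abundant RNAs of the renal cortex included those of the mitochondrial genome, the translation machinery and the proximal tubule. Of the listed genes, 21892 had at least 1 count and 12963 were detected, which is 36.7% of all genes. Of the 22026 protein-coding genes, 12506 (56.8%) were detected, a background against which the marker counts below can be read. Among the detected genes the median was 16.5 FPKM, 998 genes reached 100 FPKM in every control, and 34 reached 1000. The 10 genes with the most counts took 7.81% ± 2.31 (SD, n = 4) of a library, the top 100 took 18.5% ± 2.24 and the top 1000 took 46.6% ± 1.70.

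Mitochondrial mRNAs, which encode core subunits of the respiratory chain, filled the first places. mt-Co1, a catalytic subunit of cytochrome c oxidase, was first of all genes at 11524, 22185, 8913 and 13895 FPKM. Con1452 was high and Con1822 low, and the same order held for the summed mitochondrial mRNAs, which took 4.75%, 9.28%, 3.88% and 5.88% of the counts. mt-Cytb, part of complex III, had 7443, 14243, 5985 and 9168 FPKM. mt-Nd1, part of complex I, had 7168, 13528, 6353 and 8995 FPKM, so the libraries of mt-Cytb and mt-Nd1 overlap and their order is not resolved. Eef1a1, the translation elongation factor, was the first nuclear gene at 7078 ± 647 FPKM.

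The low values of several other mitochondrial mRNAs are uncertain. mt-Co2 stood at 61.1 FPKM, mt-Co3 at 17.2 FPKM and mt-Atp6 at 13.0 FPKM. Nuclear transcripts of at least 99% identity cover 99.6% of mt-Co2, 99.9% of mt-Co3 and 99.6% of mt-Atp6, and 0.0% of mt-Cytb, mt-Nd1, mt-Nd2 and mt-Nd5. Only annotated transcripts were searched, so 0.0% does not exclude a nuclear copy that is not annotated. Within that limit the level did not follow this cover in every gene, as mt-Atp8 had 49.9 FPKM with 0.0% covered. mt-Nd4 had 2926 FPKM with 63.6% covered, and mt-Co1 is covered over 31.3%. Reads from such copies can be lost or assigned elsewhere in counting, so levels within the mitochondrial genome are not ranked further.

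**Figure D1:**
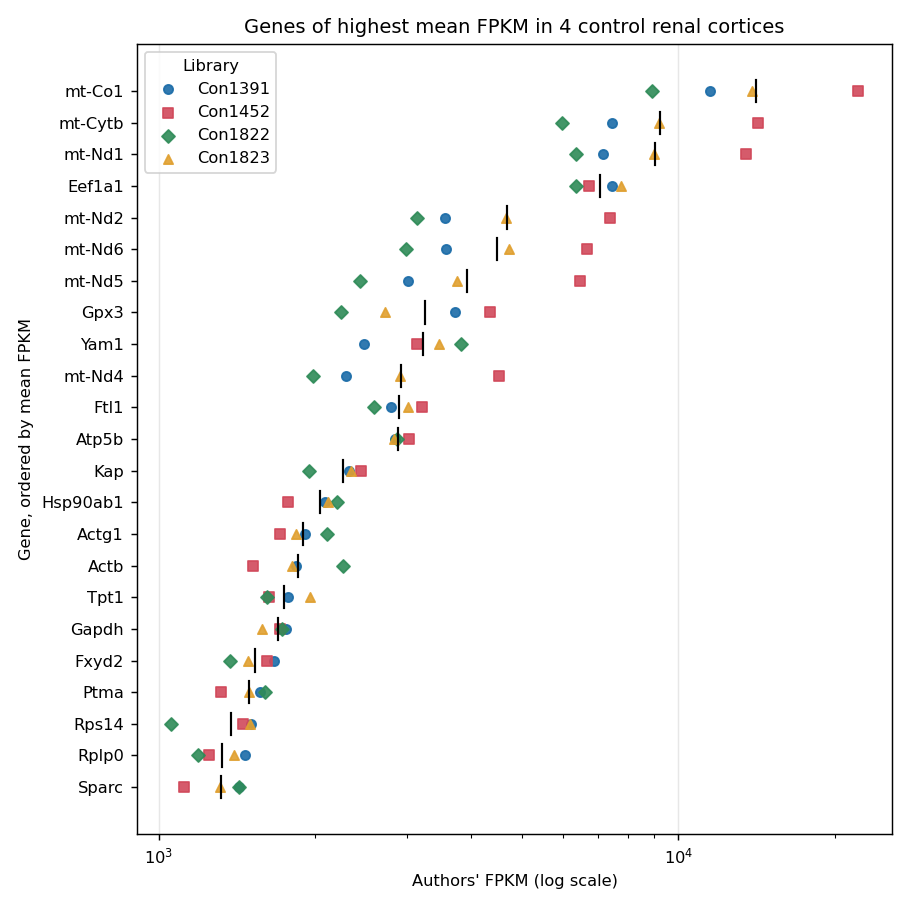
Authors' FPKM (log axis) of 23 of the 25 most abundant genes in each of the 4 control libraries, 1 point per library and colour, genes ordered by mean. The mitochondrial genes spread widely, with mt-Co1 between 8913 and 22185 FPKM, while the Atp5b points lie close together.

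Kidney genes were prominent among the 25 most abundant. Gpx3, the plasma glutathione peroxidase that the proximal tubule secretes, had 3717, 4349, 2247 and 2730 FPKM. It was higher in Con1391 and Con1452 than in the other pair. Kap, an androgen-regulated protein of the mouse proximal tubule, had 2322, 2448, 1948 and 2342 FPKM. Con1822 was lowest in both Gpx3 and Kap. Fxyd2, a regulatory subunit of the sodium pump, stood at 1535 ± 133 FPKM, and Atp5b, the catalytic subunit of the ATP synthase, at 2895 ± 91.0 FPKM. Ftl1, the light chain of ferritin, reached 2906 ± 270 FPKM. Sparc, a matrix glycoprotein of stromal and endothelial cells, closed the list at 1321 ± 147 FPKM.

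Yam1, a long intergenic RNA, was ninth at 2487, 3146, 3815 and 3469 FPKM. Its interval on mm10, chr17:39846958-39848788, overlaps the RefSeq 18S ribosomal pseudogene Rn18s-rs5, so its counts may include ribosomal RNA, which was not tested.

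FPKM also depends on the length a gene is given. The authors' lengths lie within 10% of the mean length of a gene's GENCODE transcripts for 65.4% of 11565 genes compared, and the longest transcript is a median 1.66 times longer. With the longest transcript as the length, 21 of the 25 genes stayed among the top 25, and Gapdh, a glycolytic enzyme at 1695 ± 79.3 FPKM, fell to rank 95. Levels of different genes are given on the authors' scale, and the value on the longest transcript is added to list medians and pair ratios that it moves by over 1.5 times, and to some genes.

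The proximal tubule list took the largest share of counts among the nephron segment lists, which differ in their number of genes. Of its 33 marker genes 32 were detected, the median member had 115 FPKM (67.9 FPKM on the longest transcript), and together they took 1.64% ± 0.223 of the counts. The exception was Cyp2e1, a cytochrome P450 enzyme, at 1.28 ± 0.33 FPKM with 1 library under 1 FPKM. Since these are bulk samples, fewer cells of a type and less RNA per cell cannot be told apart, here and for every list below.

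The upstream sequence of Kap is shown because it was among the most abundant genes of the segment. It is the 250 bases before the transcription start that RefSeq annotates on GRCm38.p6, at chr6:133853668-133853917 on the minus strand. Capitals mark TATAAA, the TATA box.
Kap: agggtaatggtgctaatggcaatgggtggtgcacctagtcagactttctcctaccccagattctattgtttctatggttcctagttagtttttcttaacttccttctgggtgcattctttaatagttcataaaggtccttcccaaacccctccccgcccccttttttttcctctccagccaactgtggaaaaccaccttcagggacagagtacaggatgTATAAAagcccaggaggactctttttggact
The TATA box lay 31 bases before the start. TATAAA occurred on either strand in 6 of the 28 proximal tubule genes with a window, against 14.3% of all 27025 genes with a window and 7.84% of the 9673 detected ones. A match of letters describes a sequence and is neither a binding site nor a cause of a level.

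Among the apical carriers, Slc34a1, the main phosphate transporter of the tubule, was at 542, 677, 560 and 540 FPKM. Con1452 was above the other libraries, which lay close together. Slc5a2, the low-affinity glucose carrier SGLT2 of the early segments, had 141, 230, 124 and 117 FPKM. Slc5a1, the high-affinity carrier SGLT1 of the late segment, had 16.7, 20.2, 22.1 and 21 FPKM. SGLT2 exceeded SGLT1 in every library, by 5.56 to 11.4 times, a mean ratio of 7.76 that was 2.79 on the longest transcripts. Slc6a19, a carrier of neutral amino acids, was lower at 26.1 FPKM.

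The endocytic receptors that retrieve filtered protein were both present. Megalin (Lrp2) had 216, 241, 202 and 231 FPKM. Its partner cubilin (Cubn) had 61.8, 70.6, 56.5 and 70.6 FPKM. Megalin was higher in every library, by 3.27 to 3.57 times, and neither gene set 1 library apart. The brush-border peptidase Anpep was even, at 196, 201, 207 and 190 FPKM, and Mep1a, a subunit of meprin, averaged 522 FPKM.

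Slc22a6 and Slc22a8, the basolateral organic anion carriers, were detected at mean levels under the list median of 115 FPKM. Slc22a6 (OAT1) had 41.1, 49.5, 37.8 and 35.4 FPKM. Slc22a8 (OAT3) had 57.7, 73.2, 54.8 and 52.0 FPKM. OAT3 was higher in every library, with an OAT1 to OAT3 ratio of 0.676 to 0.711. Slc22a12, the urate exchanger, was at 63.9 FPKM.

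Metabolic enzymes of the list covered a wide range of levels. Ass1, which makes argininosuccinate on the way to arginine, had 1095, 1614, 1061 and 1161 FPKM. Pck1, which commits carbon to glucose synthesis, had 771, 796, 364 and 334 FPKM. Con1391 and Con1452 were both above the other pair in Pck1, whereas Con1452 alone was high in Ass1. G6pc, the last step of glucose release, had 125, 175, 75.2 and 85.7 FPKM. The other enzymes were Fbp1 at 740 FPKM, Miox, which breaks down inositol, at 617 FPKM, and Gatm, the first step of creatine synthesis, at 530 FPKM.

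Within the proximal tubule the early-segment list had the higher median. The 9 genes of segments S1 and S2 were all detected with a median of 111 FPKM (59.3 FPKM on the longest transcript). Of 8 genes of the late segment S3, 7 were detected with a median over all 8 of 20.9 FPKM on both lengths. Slc22a19, an organic anion transporter of S3, averaged 34.6 FPKM and the amino acid carrier Slc7a13 had 20.5, 26, 19 and 21.8 FPKM. Slc22a7, the anion transporter OAT2, was under 1 FPKM in every control at 0.549 FPKM. The medians cover different genes and describe the lists alone.

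**Figure D2:**
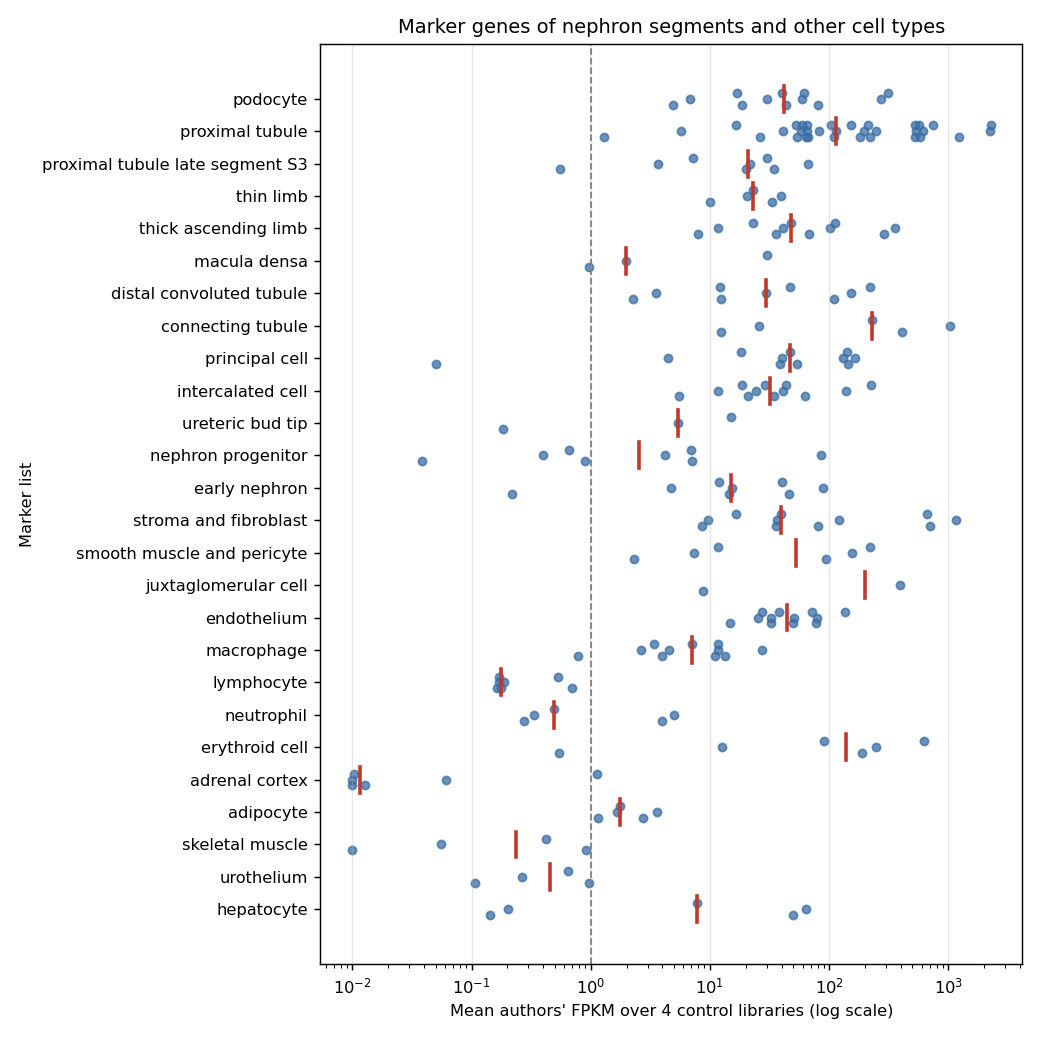
Mean authors' FPKM over the 4 controls (log axis) of every member of each marker list, 1 point per gene, with a red bar at the list median and a dashed line at 1 FPKM; values under 0.01 FPKM are drawn at 0.01. Proximal tubule, connecting tubule and juxtaglomerular lists have the highest medians among the renal lists, and the medians of the lymphocyte and adrenal lists lie under the dashed line.

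The loop and the distal nephron were already marked by their defining carriers. All 11 thick ascending limb genes were detected, with a median of 47.6 FPKM. Slc12a1, the sodium, potassium and chloride cotransporter NKCC2, had 306, 284, 292 and 283 FPKM. Umod, the secreted uromodulin, had 400, 407, 321 and 301 FPKM. Slc12a1 varied little, whereas Umod was higher in Con1391 and Con1452 than in the other pair. The claudin Cldn10 averaged 102 FPKM. Egf, a growth factor of this and the next segment, was the lowest named member at 11.6 FPKM.

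The distal convoluted tubule list was detected in full, 9 of 9 genes. Slc12a3, the thiazide-sensitive cotransporter NCC, had 103, 115, 118 and 107 FPKM. NKCC2 exceeded NCC in every library, by 2.47 to 2.96 times. The magnesium channel Trpm6 had 2.04, 1.64, 3.11 and 2.29 FPKM, and the calcium buffer Pvalb had 3.41, 4.44, 2.66 and 3.54 FPKM. NCC and these genes, which mark the same segment in the adult mouse, thus stood far apart in level. Wnk1, a kinase upstream of the cotransporters, reached 220 FPKM and Wnk4 46.9 FPKM.

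All 5 connecting tubule genes were detected at a median of 229 FPKM (102 FPKM on the longest transcript), above the median of the proximal tubule list. S100g, calbindin D9k, had 1190, 743, 985 and 1230 FPKM, with Con1452 lowest. Calb1, calbindin D28k, had 192, 200, 302 and 220 FPKM, with Con1822 highest. The calcium channel Trpv5 averaged 12.5 FPKM and the exchanger Slc8a1 25.6 FPKM, both well under their cytoplasmic buffers. Klk1, tissue kallikrein, was even at 432, 434, 383 and 391 FPKM.

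Both collecting duct cell types were represented. In principal cells 10 of 11 genes were detected. Aqp2, the vasopressin-regulated water channel, had 229, 108, 115 and 116 FPKM. Con1391 was well above the others in Aqp2, and it was also highest in the summed thin limb list, at 285 CPM against 183 to 210 CPM. Avpr2, the vasopressin receptor, had 0, 2, 3 and 0 counts, a mean of 0.0505 FPKM. The epithelial sodium channel subunits lay close, with Scnn1a at 40.0 FPKM, Scnn1b at 53.3 FPKM and Scnn1g at 38.7 FPKM.

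All 12 intercalated cell genes were detected. Rhcg, an ammonia channel, had 244, 203, 235 and 225 FPKM. Slc4a1, the anion exchanger of acid-secreting cells, had 41.9, 32.6, 52.7 and 48.0 FPKM. Slc26a4, pendrin of base-secreting cells, had 17.6, 17.1, 18.6 and 21.6 FPKM, below Slc4a1 in every library. Red cells also express Slc4a1, and globin RNA, given below, was present in every library. Foxi1, the transcription factor of this lineage, averaged 24.5 FPKM.

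In the glomerulus all 12 podocyte genes were detected at a median of 41.7 FPKM (28.8 FPKM on the longest transcript). Nphs1, nephrin of the slit diaphragm, had 56.7, 53.2, 66.2 and 61.3 FPKM, but its mean was 18.9 FPKM on the longest transcript. Con1452 was lowest and Con1822 highest. Podxl, podocalyxin of podocytes and endothelium, had 303, 278, 336 and 320 FPKM, and the cell cycle inhibitor Cdkn1c averaged 273 FPKM.

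Renin (Ren1), the juxtaglomerular protease, had 371, 363, 505 and 338 FPKM. Con1822 was highest in Ren1 and also in all 5 smooth muscle genes with a mean count of at least 100. It was highest in 3211 of all 11593 genes of that count. Acta2, smooth muscle actin, had 219, 174, 321 and 170 FPKM. Of 9 genes of the renin and angiotensin system 8 were detected, with the aminopeptidase Enpep at 224 FPKM, Ace at 106 FPKM and the receptor Agtr1a at 51.4 FPKM. The fetal receptor Agtr2 had 6.25, 3.34, 5.74 and 5.23 FPKM, and Agtr1b was under 1 FPKM at 0.620 FPKM.

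All 11 stromal genes were detected. Col3a1, a fibrillar collagen, had 1423, 909, 1265 and 1051 FPKM, with a mean of 378 FPKM on the longest transcript. Col1a1 had 778, 440, 886 and 571 FPKM. Con1452 was lowest in both collagens, and in 9 of 11 stromal genes. Over all 11593 genes with a mean count of at least 100, Con1452 was lowest in 3337. Dcn, the proteoglycan decorin, averaged 121 FPKM and Foxd1, the transcription factor of stromal progenitors, 8.52 FPKM. All 12 endothelial genes were detected at a median of 44.0 FPKM, with Pecam1 at 80.0, 66.8, 84.2 and 82.5 FPKM.

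Blood and immune lists differed. Of 11 macrophage genes 10 were detected at a median of 7.04 FPKM (3.94 FPKM on the longest transcript), led by the lysozyme Lyz2 at 27.5 FPKM, whereas 0 of 7 lymphocyte genes were. The adult globin Hbb-bs had 795, 541, 516 and 677 FPKM, so red cell RNA was present in every library. Of 6 adrenal cortex genes 1 was detected, Star at 1.12 FPKM, while Cyp11b1 and Cyp11b2 had 0 counts. Of 5 hepatocyte genes, 3 were detected, with Ttr, a thyroid hormone carrier, at 45.8, 113, 47.6 and 50.5 FPKM, and Alb and Apoa1 under 1 FPKM.

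The adipocyte list separated 1 library. Adipoq, adiponectin, had 162, 1, 0 and 0 counts. Ucp1, the uncoupling protein of brown fat, had 182, 2, 0 and 1 counts. Con1391 thus held nearly all counts of both genes, and its summed list was 51.3 CPM against 0.0587 to 0.468 CPM in the others. The urothelium list moved with it, at 8.16 CPM in Con1391 and 0.468 to 1.82 CPM elsewhere, with Upk1b at 70, 5, 11 and 26 counts.

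Nephron progenitor genes were split in level. Of 8 members 4 were detected (the share of all protein-coding genes is 56.8%) and 3 were under 1 FPKM in every control. Six2, the transcription factor that keeps progenitors undifferentiated, had 3, 0, 0 and 2 counts, a mean of 0.0387 FPKM. Eya1 and Gdnf, its partner and the ligand that drives ureteric branching, were also under 1 FPKM at 0.660 and 0.395 FPKM. Cited1, another marker of the uninduced cap, was still detected at 4.64, 2.88, 3.87 and 5.49 FPKM, and Meox1, a homeobox gene of the same cells, at 7.28, 6.24, 8.20 and 6.15 FPKM. Itga8, the integrin of the list that mesangial cells keep, had 76.5, 84.3, 96.4 and 84.7 FPKM. Osr1 was neither detected nor under 1 FPKM throughout, at 1.48, 0.664, 0.766 and 0.644 FPKM.

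Genes of the next stages followed. Of 8 early nephron genes 7 were detected at a median of 14.9 FPKM (8.35 FPKM on the longest transcript), although Pax8, an epithelial factor at 46.4 FPKM, is also kept in mature tubules. Wnt4, the signal that turns mesenchyme into epithelium and that medullary stroma also makes, had 8.10, 2.52, 4.17 and 3.90 FPKM. Fgf8, a survival factor of the renal vesicle, was at 0.219 FPKM. Ret, the receptor of the ureteric tip, was at 0.184 FPKM, while Wnt11 had 23.0, 10.5, 14.7 and 12.5 FPKM. Con1391 was highest in both Wnt genes.

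All 12 cell cycle genes were detected at a median of 19.7 FPKM (12.3 FPKM on the longest transcript), with Mki67 at 12.1, 14.8, 14.8 and 12.7 FPKM and the topoisomerase Top2a at 64.5, 76.0, 81.9 and 61.4 FPKM. Con1452 and Con1822 were the higher pair in both. All 10 imprinted genes were detected, and the fetal growth factor Igf2 had 59.6, 35.8, 45.8 and 41.0 FPKM. Igf2 exceeded Igf1 in 3 of 4 libraries, with a ratio of 0.888 to 1.34, so these growth factors are not ordered (higher in 4 of 4, with a mean ratio of 1.68, on the longest transcripts).

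Families of junction, water and patterning genes showed graded levels. Of 20 claudins 15 were detected and Cldn13 had 0 counts. Cldn2, the leaky sodium pore of the proximal tubule, led at 411, 457, 377 and 389 FPKM, followed on the authors' lengths by Cldn10. Cldn6, a claudin of immature epithelia, had 53.6, 41.2, 59.4 and 57.6 FPKM. Of 11 aquaporins 7 were detected, led by Aqp1, the constitutive channel of proximal tubule and thin limb, at 257, 226, 199 and 213 FPKM. Of 17 posterior Hox genes 15 were detected. Hoxd8 averaged 164 ± 10.9 FPKM and Hoxa10 78.1 FPKM, whereas the terminal genes Hoxa13 and Hoxd13 were at 0.0275 and 0.0314 FPKM.

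Vitamin D and phosphate genes were all detected, 9 of 9. Klotho (Kl), the FGF23 co-receptor, had 119, 132, 147 and 134 FPKM. Cyp27b1, which makes active vitamin D, had 7.87, 7.14, 7.00 and 5.50 FPKM. Cyp24a1, which degrades it, had 6.87, 24.8, 4.72 and 5.24 FPKM. The synthesising enzyme was even, and the degrading one was high in Con1452 only among the 4 libraries, which set their ratio between 0.288 and 1.48.

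Related genes were compared within each library as 22 pairs, and in 20 of them the same gene was higher in all 4 controls. The exceptions were Igf2 with Igf1 and Cyp27b1 with Cyp24a1. Among carriers, Slc34a1 exceeded Slc34a3, the other renal phosphate carrier, by 28.8 to 39.0 times, a mean ratio of 35.4 that was 73.5 on the longest transcripts. The sodium and proton exchanger Slc9a3 (NHE3), typical of the adult proximal tubule, had 12.7, 17.1, 12.5 and 11.4 FPKM. Slc9a8 (NHE8), typical of the neonatal one, had 16.2, 18.6, 15.9 and 15.0 FPKM and was the higher in every library. The ranges of both exchangers overlap across libraries, while the ratio within a library stayed between 0.764 and 0.919. The glucose exporter Slc2a2 (GLUT2) exceeded Slc2a1 (GLUT1) by 1.40 to 2.08 times.

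Metabolic isoforms were ordered alike in every library. Ldhb, the lactate dehydrogenase of oxidative tissues, had 859, 879, 840 and 845 FPKM, above Ldha at 501, 464, 503 and 464 FPKM. Hk1 stood at 137 FPKM on average against 1.14 FPKM for Hk2, the insulin-regulated hexokinase, a ratio of 95.4 to 187. Among regulators, Hnf4a at 194, 242, 194 and 220 FPKM stood far above Hnf4g, with a mean ratio of 67.5 that was 26 on the longest transcripts. The glucocorticoid receptor Nr3c1 exceeded the mineralocorticoid receptor Nr3c2 by 5.71 to 6.22 times.

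The mean ratio of no pair changed sides with the longest transcript as the length. Mt1 exceeded Mt2 in every library on the authors' lengths and in 2 of 4 on the longest transcripts. The alpha globins Hba-a1 and Hba-a2 are near-identical copies, so their ratio of 1.11 to 2.87 is uncertain.

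Variation between the 4 mice was small for most genes. The common biological coefficient of variation was 9.63% over 14258 genes. Among the 11593 genes with a mean count of at least 100, the median CV of CPM was 7.37%, against 3.84% from counting alone. The CV was above 20% in 538 genes (4.64%) and above 30% in 154 (1.33%). Of those 154 genes, 58 were highest in Con1391, 78 in Con1452, 9 in Con1822 and 9 in Con1823. Over all 11593 genes the highest library was shared more evenly, at 2742, 3356, 3211 and 2284 genes. The lowest library was shared at 2944, 3337, 3242 and 2070 genes.

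**Figure D3:**
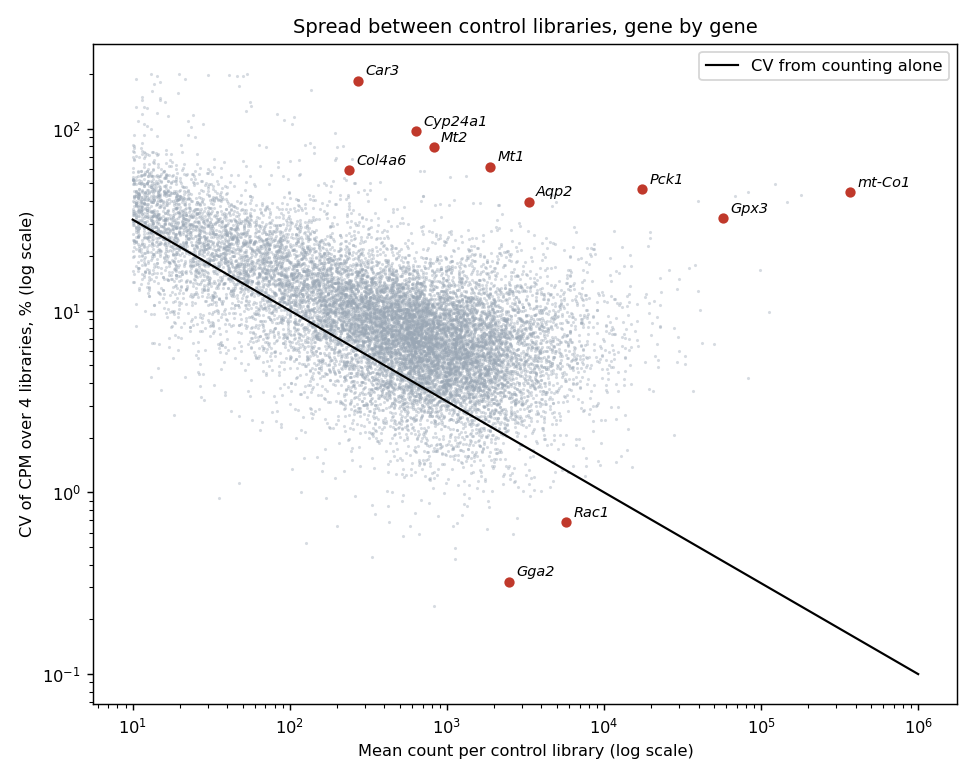
CV of TMM-scaled CPM over the 4 controls (percent, log axis) against mean count (log axis) for genes with a mean count of at least 10, 1 point per gene, with the CV from counting alone as a line and 11 labelled genes chosen after their values were seen. Car3, Cyp24a1 and Mt2 lie far above the line, and Gga2 and Rac1 lie below it.

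Proximal tubule genes moved together between libraries. Their summed level was 16130, 20472, 13776 and 15448 CPM, a CV of 17.3%, which was 8.01% without Con1452. Of the 32 members with a mean count of at least 100, 30 were highest in Con1452, against 3356 of all 11593 such genes. Cyp4b1 was highest in Con1391 and Slc22a12 in Con1823. The mitochondrial mRNAs moved with the proximal tubule genes, with 12 of 12 genes of that count highest in Con1452. Their part in the result was not tested. The range differed among members. The highest library exceeded the lowest by 1.11 times for Anpep and 1.30 times for Lrp2, and by 2.08 times for Slc5a2, 2.28 times for Slc6a19, 2.51 times for Pck1 and 2.54 times for G6pc.

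**Figure D4:**
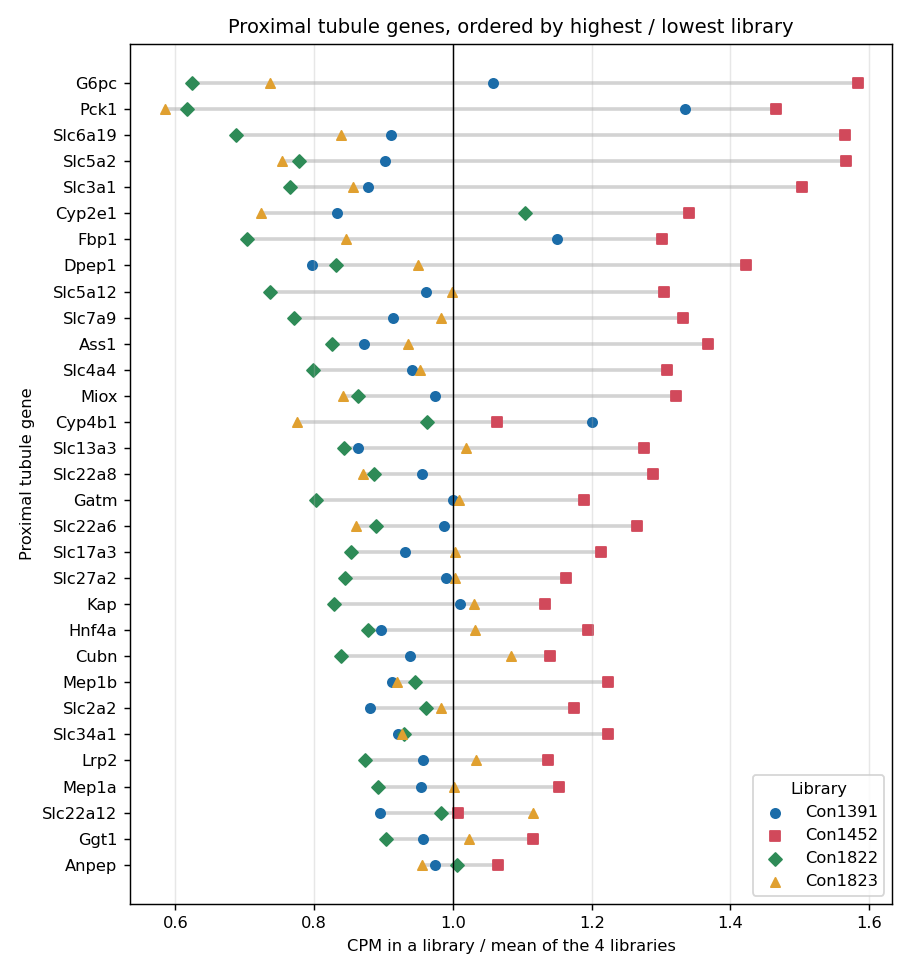
TMM-scaled CPM of 31 of the 33 proximal tubule genes in each control library relative to its mean over the 4 controls, 1 point per library and colour. Con1452 is the highest point for all but Cyp4b1 and Slc22a12, and the spread runs from 1.11 times for Anpep to 2.54 times for G6pc.

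Other lists spread less or more. The thin limb sum had a CV of 20.7%, the smooth muscle sum of 18% and the erythroid sum of 20.4%. The ureteric bud tip sum had a CV of 36.9% and was carried by Wnt11 and Wnt9b, as Ret was under 1 FPKM in every control. Of these sums, all but smooth muscle were highest in Con1391. The summed S3 list ran from 552 to 646 CPM, the thick ascending limb from 2736 to 3152 CPM and the principal cell list from 1739 to 1921 CPM. The stromal sum was 6891, 4710, 6526 and 5322 CPM, a CV of 17.4%, and 9 of 11 stromal genes were lowest in Con1452. Endothelial genes were lowest there in 11 of 12 cases and intercalated genes in 9 of 12, against 3337 of all 11593 genes. TMM-scaled CPM remain relative to the other RNAs of a library. A larger proximal tubule part and smaller parts of other cells thus cannot be told apart from each other. The claudin list as a whole was even, at 1490 to 1597 CPM (CV 2.94%), and so was the Hox list at 839 to 914 CPM (CV 3.96%).

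**Figure D5:**
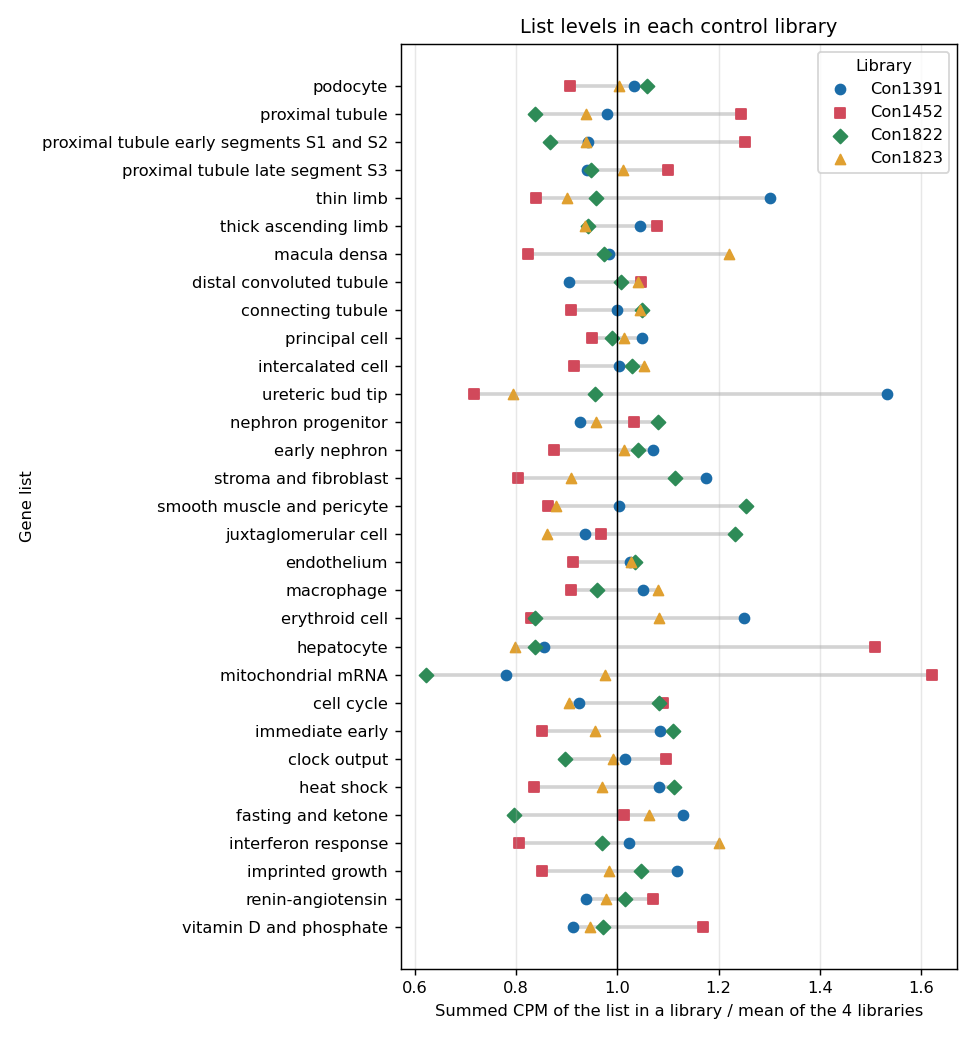
Summed TMM-scaled CPM of each list in each control library relative to the list's mean over the 4 controls, 1 point per library and colour. Shown are the marker lists and others, such as mitochondrial mRNA and cell cycle, with a mean summed level of at least 50 CPM. Con1452 is high for the proximal tubule at 20472 CPM and low for stroma at 4710 CPM, and the thin limb and ureteric bud tip lists are highest in Con1391.

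Genes that respond to handling, feeding and time of day were checked as further lists. Of 10 immediate early genes, which are induced within minutes of a stimulus, 9 were detected, and Fos was low at 2.62, 1.58, 4.70 and 3.72 FPKM. All 5 heat shock genes were detected at a median of 25.1 FPKM (15.5 FPKM on the longest transcript). The inducible chaperone Hspa1a was the lowest of them, at 5.09, 3.22, 5.14 and 3.65 FPKM. Con1452 was lowest in Fos, in Hspa1a and in all 5 heat shock genes. Of 8 fasting and ketone genes 7 were detected, led by Plin2, a lipid droplet protein, at 104 FPKM, and Fgf21 was at 0.0158 FPKM. Con1822 was lowest in all 7 members with a mean count of at least 100. Over all 11593 genes of that count, 3242 were lowest in Con1822 and 3337 in Con1452.

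Of 12 clock genes 10 were detected, and the clock output factor Dbp had 9.96, 8.18, 7.21 and 9.04 FPKM. Of 8 interferon response genes 7 were detected, led by Bst2, a viral restriction factor, at 34.9, 26, 32 and 36 FPKM. Con1452 was lowest in all 5 of these with a mean count of at least 100, against 3337 of all 11593 such genes. Con1823 was highest in 4 of those 5 interferon response genes, against 2284 of all 11593. It was also highest in the neutrophil alarmin S100a8, at 3.64, 3.83, 2.94 and 9.60 FPKM. The macula densa protease Pappa2 had 29.7, 22.9, 29.8 and 37.3 FPKM, with the same library highest. Of 4 skeletal muscle genes 0 were detected.

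Several of the most variable genes were set by 1 library. Car3, a carbonic anhydrase of fat and muscle, had 62.4, 1.40, 1.67 and 1.06 CPM, and its CV of 183% was 22.4% without Con1391. Complement C3 had 28.3, 4.09, 7.30 and 7.17 CPM, and Pi16, a fibroblast gene, had 16.8, 4.50, 4.58 and 4.29 CPM. All were high in Con1391, the library with the adipocyte transcripts, as was the lipogenic desaturase Scd1 at 26.2, 7.60, 8.11 and 6.17 CPM. The part of the adipocyte transcripts in these results was not tested.

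Con1452 was high in a separate group. The metal-binding metallothioneins gave 66.5, 208, 57.8 and 114 CPM for Mt1 and 21.7, 101, 17.7 and 54.3 CPM for Mt2. Con1823 was the next in both, so the libraries kept the same order. Cyp24a1 had 24.2, 92.6, 16.2 and 18.6 CPM, and Aass, the first enzyme of lysine breakdown, had 7.05, 28.7, 8.91 and 7.34 CPM.

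A further group was low or at 0 in Con1391. The predicted gene Gm12678 had 0, 311, 218 and 255 counts. The X-linked gene 3110007F17Rik had 0, 146, 146 and 164 counts. Col4a6, an X-linked collagen of basement membranes, had 27, 322, 287 and 316 counts. Col4a6 and 3110007F17Rik were even in the other 3 libraries, while Gm12678 ran from 13.5 to 18.2 CPM there. Strain and genotype at these genes are not given in the labels.

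Among the variable genes, the counts of 2 pseudogenes are uncertain. RP23-8J15.3, identical to 678 bases of mt-Atp6, had 1.35, 1.99, 28.8 and 1.35 CPM. RP23-8J15.2, identical to 681 bases of mt-Co2, had 5.95, 2.51, 0.74 and 15.3 CPM. At the other end, genes of membrane traffic were among the most even, with a CV of 0.32% for the Golgi adaptor Gga2, 0.43% for the SNARE Gosr1 and 0.49% for Scap, the escort of the sterol sensor. Counting alone gave 2.01% for Gga2, and on total counts in place of TMM factors the CV of Gga2 was 3.30%, so these low values single out no gene.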

How the data were processed

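RNA sequencing of renal cortex gave 1 library for each of 4 control mice. The RNA was isolated with a Qiagen kit including a DNase step and the libraries were made by Novogene, per the labels. The submitters' processing notes name HTSeq, TopHat2, Bowtie2, DESeq2 and build mm10. Not given in the sources used here are tool versions, the strand setting and the annotation. The authors deposited raw read counts and FPKM per gene and library, per the file headers. Recomputed from the counts, their FPKM is scaled by the total counts and by 1 length per gene. The mean signal per group that the authors deposited is not printed here.

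From the counts, CPM was scaled by TMM in edgeR 4.0.16 (R 4.3.3), and dispersion was estimated with an intercept only, after a test on simulated data. Each gene's CV was set beside 1 over the root of its mean count, which covers counting error only. Ranks used genes of at least 300 bases with at least 10 counts in each control. Positions came from GENCODE M21, which matched 34490 genes. The motif was searched on both strands of RefSeq windows. Nothing was compared with the mutants, and no difference between groups was tested. Dixon's test was used to mark a library that stands apart from the other 3. Levels within the controls carry no p, since a sign-flip test over 4 libraries cannot go below 0.125. That the controls were separate mice rests on their titles, and the spread may be partly technical.

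Named genes were the 25 most abundant, up to 5 leading members of each of 41 lists and the members under 1 FPKM, the 22 pairs, the 20 most and the 10 least variable genes. Others, chosen after their values were seen, are named for their role. Some genes of the lists and pairs are not reported here. The members and lists were chosen with earlier results of these data known. Alternatives were DESeq2 1.42.0 size factors, total counts, other filters and lengths, and leaving out each library.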

Additional observations from a re-analysis of the deposited data

Results flagged for a closer look

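With 4 libraries, Dixon's test compares the gap of the highest or lowest library with the whole range. Over 40 summed lists and 225 named genes, 3 lists and 24 genes passed its critical value. About 1 in 20 groups passes it by chance where genes are not chosen for their spread. Here 20 genes were named for a large CV and 10 for a small one. Of the 24 genes, 14 come from these, so that rate does not apply to them. For the other genes and the 40 lists, the numbers that passed are near that rate. A pass alone thus does not set any of them apart from chance. The adipocyte sum was also far apart in size, at 51.3 CPM in Con1391 against 0.0587 to 0.468 CPM elsewhere.

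For lists, the endothelial sum stood low in Con1452 at 1467 CPM, and the adipocyte sum stood high in Con1391 at 51.3 CPM. The hepatocyte sum stood high in Con1452 at 215 CPM, of which the single gene Ttr made up 144 CPM.

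Con1391 stood high in 10 genes, among them Aqp2, the water channel, at 320 CPM, and Cryab, a small heat shock protein, at 65.4 CPM. It also stood high in Slc4a11 at 53.2 CPM, Car3 at 62.4 CPM, C3 at 28.3 CPM and Scd1 at 26.2 CPM. The matrix-related genes Cpxm2 at 17.8 CPM, Pi16 at 16.8 CPM and Igfbp6 at 18.3 CPM followed, with Nccrp1 at 18.9 CPM. Con1391 stood low in Slc5a1 at 67.6 CPM, Col4a6 at 1.66 CPM and 3110007F17Rik at 0.0 CPM.

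Con1452 stood high in the vitamin D hydroxylase Cyp24a1 at 92.6 CPM, in Aass at 28.7 CPM, in St8sia1 at 29.8 CPM and in Ttr at 144 CPM. The phosphate carriers Slc34a1 at 2192 CPM and Slc34a3 at 20.05 CPM were high there too. Atp5b was high in Con1452 at 2785 CPM and Epha7 was low there at 24.0 CPM. Con1822 stood high in RP23-8J15.3 at 28.8 CPM, and low in Gosr1 at 66.9 CPM and in Rps14 at 597 CPM. The cause of these differences was not tested.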

How the results depend on the processing

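Of the alternative values of the main results, 85 stayed within the spread or within 1.5 times of a count, and 7 moved. The 10 genes with most counts took 3.81% with mitochondrial genes left out. With the longest transcript as the gene length, a choice made after seeing the data, list medians were 28.8 FPKM for podocytes, 67.9 FPKM for the proximal tubule and 1.79 FPKM for nephron progenitors. Without mitochondrial genes the thick ascending limb median was 50.6 FPKM. Genes with a CV above 20% numbered 2459 when a mean count of 10 sufficed, where counting error is larger. Leaving out 1 library, the CV of the summed proximal tubule list ran from 8.01% (without Con1452) to 21%, and the genes with a CV above 20% ran from 399 to 734. Of the alternative medians and counts of detected members of the other lists, 426 stayed and 25 moved. Most of these leave out 1 library, a mild change that moved no list median. Over all lists, those of the main results included, the longest transcript moved 23 medians and left 17. For 407 named or listed genes, the mean FPKM moved by more than its SD in 217 with the longest transcript and in 44 without mitochondrial genes, and in 0 with TMM scaling or the median. Of 22 pair ratios 13 moved with the longest transcript. Leaving out 1 library cannot move a mean of 4 by its SD. Of the 30 genes named for their CV, 10 moved by over 1.5 times with total counts, and leaving out a library gave 27 such moves, 15 of them without Con1391. No paired analysis was possible because a single group was described. Library totals of 15597762 to 17976888 counts limit genes with few counts, such as Six2 and Avpr2, whose levels are within counting error of 0. FPKM between genes depends on the assigned length, and the strand setting, unknown here, leaves overlapping genes uncertain.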
